A study of Homo sapiens with 3 samples.

Results

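The metallothioneins examined here were the 9 genes MT1A, MT1B, MT1E, MT1F, MT1G, MT1H, MT1M, MT1X and MT2A, taken by gene name from 3 deposited gene tables. Each name matched a single row, so 9 of the 39320 gene rows on the assembled chromosomes were described. The tables came from polyA RNA of 3 libraries labelled as replicates 1 to 3 of HepG2, a widely used human cell line from a liver tumour, with genotype WT and no treatment in the labels. The 3 libraries form 1 condition, so no comparison between conditions could be made, and the labels do not say whether they came from separate cultures, so that the spread between them may be technical. In bulk RNA, fewer cells that express a gene and less RNA per cell cannot be told apart. Genes for secreted liver proteins that HepG2 is known to express were at or near 0, as given below, so the markers did not bear out the label.

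Metallothioneins are small, cysteine-rich proteins that bind zinc and copper in normal cells and take up toxic metals such as cadmium. Their transcription rises when zinc is in excess, because the zinc-sensing factor MTF1 binds short promoter motifs called metal response elements, and glucocorticoids and oxidants also raise it. In liver the MT1 and MT2 proteins act as a store of zinc and protect against metal toxicity. MT2A is the single functional human gene of the MT2 type, and the MT1 type has many near copies, which arose by tandem duplication.

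Of the 9 genes, only MT2A, MT1E and MT1X were above 0 in these libraries, and the other 6 were listed at 0 in all 3. TPM is a level per transcript length whose sum is fixed to be equal in all libraries. MT2A had a mean of 639 TPM and MT1E of 495 TPM, which placed both among the most abundant genes. MT1X had 98.8 TPM. In every library 3 of the 9 genes reached 1 TPM, and the same 3 reached 10 TPM. Over all rows 33.8% reached 1 TPM in every library, and over the 18743 rows of protein-coding genes 59.5% did. A mean of at least 10 TPM was found in 8419 of the 39320 rows. Of the protein-coding rows, 20.0% were listed at 0 in every library, against 6 of the 9 metallothioneins.

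All 9 genes lie on chromosome 16 of GRCh38, between 56608584 and 56684196, a span of 75.6 kb. MT1G is on the minus strand and the other 8 are on the plus strand. MT2A (56608584 to 56609497) is the first of them, MT1E (56625673 to 56627117) follows 17.1 kb further on, and MT1X (56682470 to 56684196) is the last, 73.9 kb from the start of MT2A. The 6 genes listed at 0 all lie between MT1E and MT1X, in the order MT1M, MT1A, MT1B, MT1F, MT1G and MT1H. The smallest gap between neighbouring members was 1748 bp and the largest was 16175 bp. In GENCODE v44, 8 of the 9 canonical transcripts have 3 exons and encode 61 or 62 residues. The exception is MT1E, whose canonical transcript has 2 exons, 746 nt and a frame of 127 residues, against 401 nt for MT2A and 404 nt for MT1X. GENCODE v44 holds 3 MT1E transcripts, of 332 to 746 nt, and the frames of the others were not analysed here. The row spans equalled those of GENCODE v44 for 6 of the 9 genes and differed for MT1E, MT1F and MT1G, so the annotation behind the tables was another one.

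The promoters of 4 metallothioneins were in the RefSeq table used here, those of the expressed genes MT2A and MT1X and of MT1B and MT1H, which were listed at 0. The promoters of MT1A, MT1E, MT1F, MT1G and MT1M were not analysed here. The 160 bases before the annotated start of each are given here, 5′ to 3′ on the plus strand (GRCh38.p14), because they hold matches to the core of the metal response element. Capitals mark these matches, searched as TGCGCNC and TGCACNC on both strands.

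MT2A, chr16:56608424-56608583: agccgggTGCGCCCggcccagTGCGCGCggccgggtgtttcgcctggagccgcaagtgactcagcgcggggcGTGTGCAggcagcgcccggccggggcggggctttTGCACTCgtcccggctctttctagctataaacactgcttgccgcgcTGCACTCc
MT1X, chr16:56682310-56682469: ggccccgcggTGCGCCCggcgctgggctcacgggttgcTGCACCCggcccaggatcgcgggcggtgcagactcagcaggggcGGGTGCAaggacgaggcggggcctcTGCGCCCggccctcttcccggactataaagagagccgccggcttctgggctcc
MT1B, chr16:56651726-56651885: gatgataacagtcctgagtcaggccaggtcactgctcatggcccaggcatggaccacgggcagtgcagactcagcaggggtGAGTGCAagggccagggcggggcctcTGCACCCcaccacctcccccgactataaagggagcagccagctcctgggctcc
MT1H, chr16:56669654-56669813: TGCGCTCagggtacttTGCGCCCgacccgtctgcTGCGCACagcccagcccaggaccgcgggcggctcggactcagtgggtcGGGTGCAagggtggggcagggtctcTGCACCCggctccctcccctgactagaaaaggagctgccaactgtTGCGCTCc

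In the full window of 250 bases before the start, MT2A had 7 matches to the core, MT1X had 4, MT1B had 3 and MT1H had 8. At least 1 match was present in 24.8% of 34943 promoters, at least 3 in 1.58%, at least 4 in 0.369%, at least 7 in 0.0315% and at least 8 in 0.0172%. So MT1H, listed at 0 in every library, had more matches than MT2A, the gene with the highest level. All 4 promoters had a match about 50 bases before the start, at -54 in MT2A and at -53 in MT1X, MT1B and MT1H. The TATA motif TATAAA, searched on the plus strand of each gene, began at -29 in MT2A and at -30 in MT1X and MT1B, and these letters were not in the MT1H window. It was present in 6.82% of promoters. The GC box GGGCGG, searched on both strands, had 2 matches each in MT2A and MT1X and 1 each in MT1B and MT1H, and 42.5% of promoters had at least 1. In MT1X a GC box and a match to the metal response element core shared 2 bases, at -78 and -77, and no other matches in the 4 windows overlapped. CpG dinucleotides numbered 32 in MT2A, 22 in MT1X, 22 in MT1H and 7 in MT1B, against a median of 11 over all promoters. These matches describe letters in 4 windows, and no binding or methylation was measured.

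**Figure D1:**
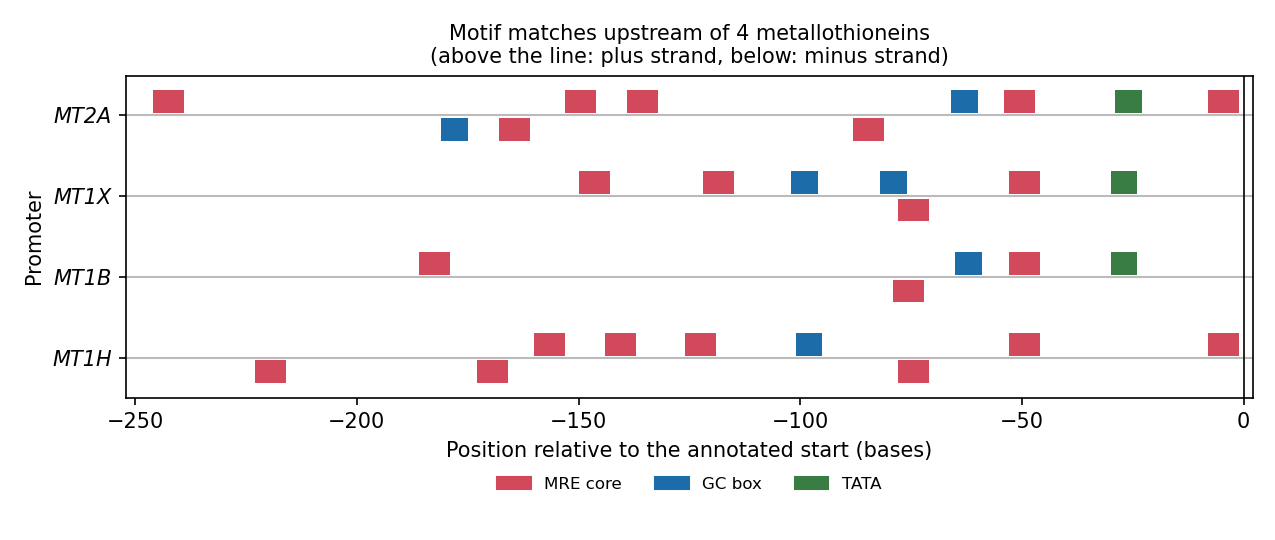
Positions of matches to the metal response element core (MRE core, red), the GC box (blue) and TATAAA (green) in the 250 bases before the annotated start of MT2A, MT1X, MT1B and MT1H, with plus strand matches above and minus strand matches below each line. MT2A has 7 core matches, MT1X 4, MT1B 3 and MT1H 8, and each promoter has a match at -54 or -53.

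MT2A, which encodes the most abundant metallothionein of most human tissues, had 621, 664 and 631 TPM in replicates 1, 2 and 3. Its mean was 639 ± 22.3 TPM (SD, n = 3). It ranked 184th by mean TPM of all rows and exceeded 98.7% of the 13753 rows with a mean of at least 1 TPM. The values lay between those of PPIA, a housekeeping peptidyl-prolyl isomerase with 1189 ± 25.4 TPM, and PGK1, a glycolytic kinase with 316 ± 17.5 TPM (SD, n = 3).

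MT1E had 468, 508 and 509 TPM in replicates 1, 2 and 3, or 495 ± 23.3 TPM (SD, n = 3). It ranked 233rd and exceeded 98.3% of the rows with a mean of at least 1 TPM. The libraries did not overlap with those of MT2A, since the highest value of MT1E, 509 TPM, was below the lowest of MT2A, 621 TPM.

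MT1X had 96.7, 97.5 and 102 TPM in replicates 1, 2 and 3, or 98.8 ± 2.99 TPM (SD, n = 3). It ranked 1516th and exceeded 89.0% of the rows with a mean of at least 1 TPM. All of its values were below those of MT1E. HPRT1, a purine salvage enzyme on the housekeeping list, had a similar level of 97.2 ± 3.88 TPM (SD, n = 3).

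**Figure D2:**
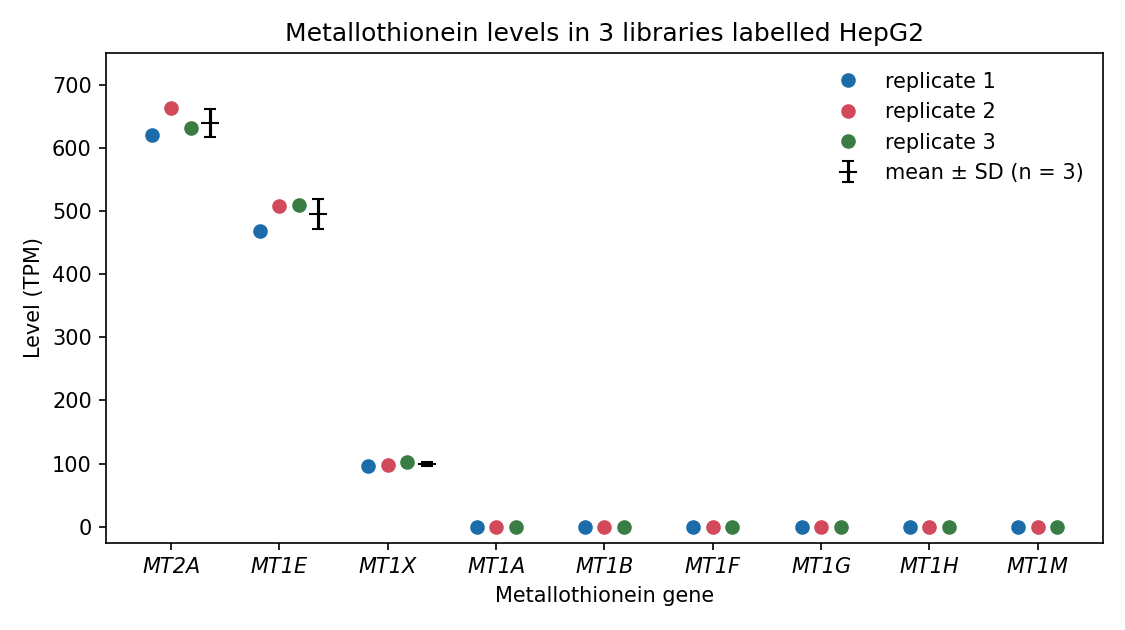
TPM of the 9 metallothioneins in each library (replicate 1 blue, replicate 2 red, replicate 3 green), with the mean and SD over 3 libraries in black for the genes above 0. MT2A lies between 621 and 664 TPM, MT1E between 468 and 509 TPM and MT1X between 96.7 and 102 TPM, and the other 6 are at 0 in all 3 libraries.

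The order of levels was MT2A, MT1E, MT1X in every library. MT2A exceeded MT1E 1.33-fold, 1.31-fold and 1.24-fold in replicates 1, 2 and 3. The log2 ratio of TPM, with 1 added to both values, was 0.37 ± 0.05 (SD, n = 3, higher in 3 of 3 libraries), with p = 0.25 in an exact permutation test (two-sided, flipping signs over libraries) and 0.25 after Benjamini-Hochberg adjustment over 2 pairs. MT1E exceeded MT1X 4.84-fold, 5.21-fold and 4.98-fold, a log2 ratio of 2.31 ± 0.05 (SD, n = 3, higher in 3 of 3 libraries), with the same exact p = 0.25 and adjusted p = 0.25. This is the smallest p that 3 libraries allow, so the test could not call either pair. Both ratios were larger than their SD between libraries, but the order of each pair was taken from these same values. The ratios are therefore a description of these libraries.

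The size of these ratios depended on the measure. Coverage, the mean read depth over a gene, is not scaled for library size, and it was 3892, 4074 and 3470 for MT2A. It was 1738, 1848 and 1655 for MT1E, and 606, 599 and 562 for MT1X. By coverage the order was unchanged, but MT2A exceeded MT1E 2.18 ± 0.0741-fold and MT1E exceeded MT1X 2.97 ± 0.111-fold (SD, n = 3). The ratio of coverage to FPKM in MT1E was 0.592, 0.593 and 0.592 of the highest in the library, while in MT2A and MT1X it was at that maximum in every library. FPKM, which is scaled for length and library size, was 293, 317 and 303 for MT2A, 221, 243 and 244 for MT1E, and 45.7, 46.6 and 49.0 for MT1X. Values of single transcripts were not analysed here, so the ratio of MT2A to MT1E is uncertain between these measures.

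Summed over the 9 genes, metallothionein RNA reached 1185, 1269 and 1242 TPM in replicates 1, 2 and 3, or 1232 ± 42.7 TPM (SD, n = 3), which was 0.123% of all TPM. MT2A made up 51.8 ± 0.874% of the sum, MT1E 40.1 ± 0.746% and MT1X 8.02 ± 0.294% (SD, n = 3). The 2 genes MT2A and MT1E thus held most of the family's RNA in each library.

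None of the 3 expressed members had a range between libraries above 1 on the log2 scale, as 0.273% of the 8419 rows with a mean of at least 10 TPM did. The range of log2(TPM + 1), highest minus lowest, was 0.10 for MT2A, 0.12 for MT1E and 0.08 for MT1X, beside a median of 0.13 over those rows. With median-of-ratios scaling the ranges rose to 0.15, 0.20 and 0.16 and the median fell to 0.11. Whether the 3 genes lie below or above the median therefore depends on the scaling, and it also depended on the replicates used. Without replicate 1 the median was 0.05, with MT2A and MT1X above it at 0.07 each and MT1E below at 0.0026. Without replicate 2 the median was 0.10, with MT1E above it at 0.12 and MT2A and MT1X below at 0.02 and 0.08. Without replicate 3 the median was 0.09, with MT2A and MT1E above it at 0.10 and 0.12 and MT1X below at 0.01. By TPM as deposited, the coefficient of variation was 3.50% for MT2A, 4.71% for MT1E and 3.02% for MT1X, and its median over those rows was 4.88%. All 3 were lowest in replicate 1, also with median-of-ratios scaling and after scaling without mitochondrially encoded genes. MT2A was highest in replicate 2, and MT1E and MT1X were highest in replicate 3.

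MT1A, MT1B, MT1F, MT1G, MT1H and MT1M had 0 TPM, 0 FPKM and 0 coverage in each of the 3 libraries. The tables hold no read counts, and no limit of detection was worked out for these zeros. Rows above 0 and below 0.1 TPM numbered 2311, 2175 and 2161 in replicates 1, 2 and 3, and the smallest value above 0 was 1e-06 TPM in each. So low levels are listed for some rows, but whether a metallothionein would be listed at such levels was not tested. Paralogs this alike can share reads, and the way such reads were assigned is not given in the sources used here. Exact sharing was therefore measured between the GENCODE v44 transcripts of 21 metallothionein genes and pseudogenes. For each of the 9 members, 0% of the stretches of 150 bases, the length of the reads, also occurred in another gene of the family. Of stretches of 50 bases, 18.2% were shared for MT1M, 16.4% for MT1G, 15.8% for MT1H, 7.10% for MT1E, 5.76% for MT1A, 4.18% for MT2A, 3.73% for MT1X, 1.24% for MT1F and 0% for MT1B. MT1G shared 51 such stretches with MT1X, and the gene with which MT2A and MT1E shared most was also MT1G. Stretches that differ by a few bases were not counted, and the part of read assignment in the zeros was not tested.

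Rows of other metallothionein genes, except MT4, were below 1 TPM in every library. Of 12 further genes and pseudogenes on the list, 7 had a row on the assembled chromosomes, and the only row with at least 1 TPM in every library was MT4. MT4, a metallothionein known from stratified epithelia, had 1.81, 3.98 and 3.04 TPM in replicates 1, 2 and 3, or 2.94 ± 1.09 TPM (SD, n = 3). MT3, known from the brain, and the pseudogenes MT1L, MT1JP and MT1IP were listed at 0 in every library. MT1DP was listed at 0.131, 0 and 0.143 TPM, and MT1HL1 at 0.00353 TPM in replicate 1 and at 0 in the others.

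Between the ends of MT2A and MT1X lie 14 rows in all, 9 of metallothioneins described here and 5 others. The others, MT1L, MT1JP, MT1DP, LOC101927536 and MT1IP, had less than 1 TPM in every library. The row nearest to the cluster on the side of MT2A was MT3, and the nearest on the side of MT1X, LOC105371286, was listed at 0, 0.0815 and 0.143 TPM. The nearest row beyond MT1X with at least 1 TPM in every library was NUP93, a nuclear pore gene that begins 45.9 kb further on and had 31.0 ± 1.20 TPM (SD, n = 3). NUP93 was chosen after its values were seen. The levels of MT2A and MT1E were thus next to rows at or near 0 on either side.

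**Figure D3:**
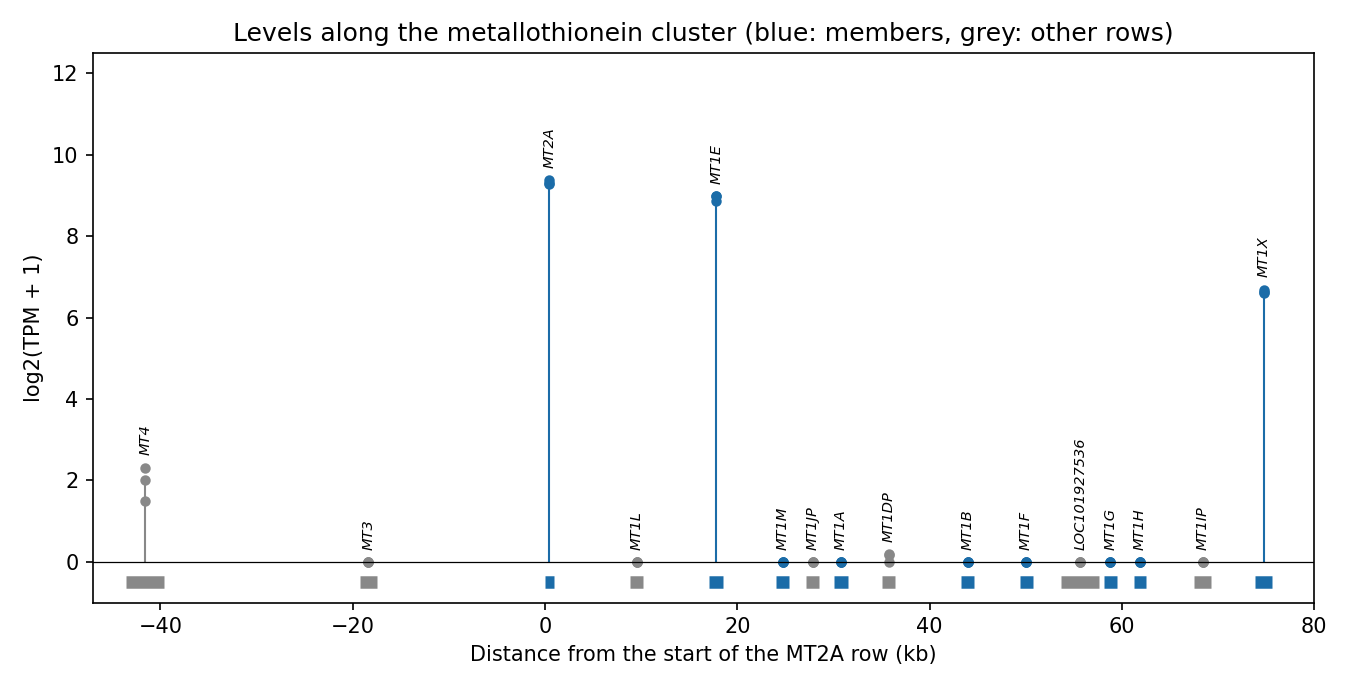
Levels along the cluster, as log2(TPM + 1) against the distance in kb from the start of the MT2A row. Bars below the axis mark the gene spans, points are the 3 libraries, and blue marks the 9 members and grey the other rows. MT2A, MT1E and MT1X stand out at 0, 17.1 and 73.9 kb, and the 6 members listed at 0 lie between MT1E and MT1X.

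Most of the listed genes that control metallothioneins, handle the same metals or respond to metals or oxidants were expressed. Of 51 genes on 5 lists, 42 had at least 1 TPM in every library, or 82.4%, beside 59.5% of the protein-coding rows. The median of their mean levels was 29.2 TPM, beside 4.99 TPM over the protein-coding rows and 0 TPM over the 9 metallothioneins. These lists were chosen with earlier results of these data known, so the shares and medians only describe the chosen genes.

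All 7 listed regulators had at least 1 TPM in every library, beside 59.5% of the protein-coding rows. MTF1, the zinc sensor that activates metallothionein genes, had 7.19, 6.53 and 6.11 TPM in replicates 1, 2 and 3, or 6.61 ± 0.543 TPM (SD, n = 3), the lowest of the list. USF2, a helix-loop-helix factor that binds E-box motifs, had 107 ± 2.77 TPM, and its partner USF1 had 31.9 ± 1.33 TPM (SD, n = 3). STAT3, the factor through which interleukin-6 acts, had 67.0 ± 1.83 TPM (SD, n = 3). NFE2L2, which encodes the oxidant-responsive factor NRF2, had 62.4 ± 5.69 TPM, and its inhibitor KEAP1 had 36.5 ± 0.635 TPM (SD, n = 3).

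Most SLC30 carriers move zinc out of the cytosol, and 6 of the 10 listed had at least 1 TPM in every library. This was 60%, near the 59.5% of the protein-coding rows. SLC30A1, the zinc exporter of the cell surface and itself a target of MTF1, had 37.0, 32.7 and 32.3 TPM in replicates 1, 2 and 3, or 34.0 ± 2.62 TPM (SD, n = 3). SLC30A5 had the highest level of the list at 38.1 ± 3.14 TPM and works with SLC30A6, which had 15.1 ± 1.55 TPM (SD, n = 3), in the secretory pathway. SLC30A9 had 23.5 ± 1.40 TPM and SLC30A7 had 9.98 ± 0.610 TPM (SD, n = 3). SLC30A2, SLC30A8 and SLC30A10 were listed at 0 in every library.

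SLC39 carriers bring zinc into the cytosol, and 10 of the 14 listed had at least 1 TPM in every library. This was 71.4%, beside 59.5% of the protein-coding rows. SLC39A1, a zinc importer of the cell surface, led with 226 ± 8.53 TPM (SD, n = 3). SLC39A7, which releases zinc from the endoplasmic reticulum, had 102 ± 1.75 TPM (SD, n = 3). SLC39A14, which also carries iron and manganese, had 87.8 ± 6.00 TPM, and SLC39A8, which also carries manganese and cadmium, had 35.0 ± 2.39 TPM (SD, n = 3). SLC39A3 had 33.2 ± 1.31 TPM (SD, n = 3). The other 4 were below 1 TPM in every library.

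Of 11 genes for copper handling, 10 had at least 1 TPM in every library, or 90.9%, beside 59.5% of the protein-coding rows. SOD1, the copper and zinc superoxide dismutase, had 419 ± 15.3 TPM, and CCS, the chaperone that loads it with copper, had 50.4 ± 3.68 TPM (SD, n = 3). COX17, which carries copper to cytochrome oxidase, had 177 ± 14.8 TPM (SD, n = 3). ATOX1, which delivers copper to the secretory copper pumps, had 110 ± 0.968 TPM, and COMMD1, a regulator of those pumps, had 38.7 ± 1.96 TPM (SD, n = 3). SLC31A2, a second copper carrier, was the exception with 0.410, 1.34 and 1.13 TPM in replicates 1, 2 and 3.

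All 9 listed genes that respond to metals or oxidants were above 10 TPM in every library. Over all rows, 8419 of 39320 had a mean of at least 10 TPM. TXNRD1, a thioredoxin reductase, had 381 ± 28.7 TPM (SD, n = 3). The heat shock genes HSPA1A and HSPA1B had 292 ± 10.8 and 252 ± 8.15 TPM (SD, n = 3), but they are near-identical copies, so their division is uncertain. Their cochaperone DNAJB1 had 124 ± 3.67 TPM, and SRXN1, which repairs oxidized peroxiredoxins, had 99.6 ± 5.61 TPM (SD, n = 3). With no treated or control libraries, these levels do not show whether any of the genes was induced.

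**Figure D4:**
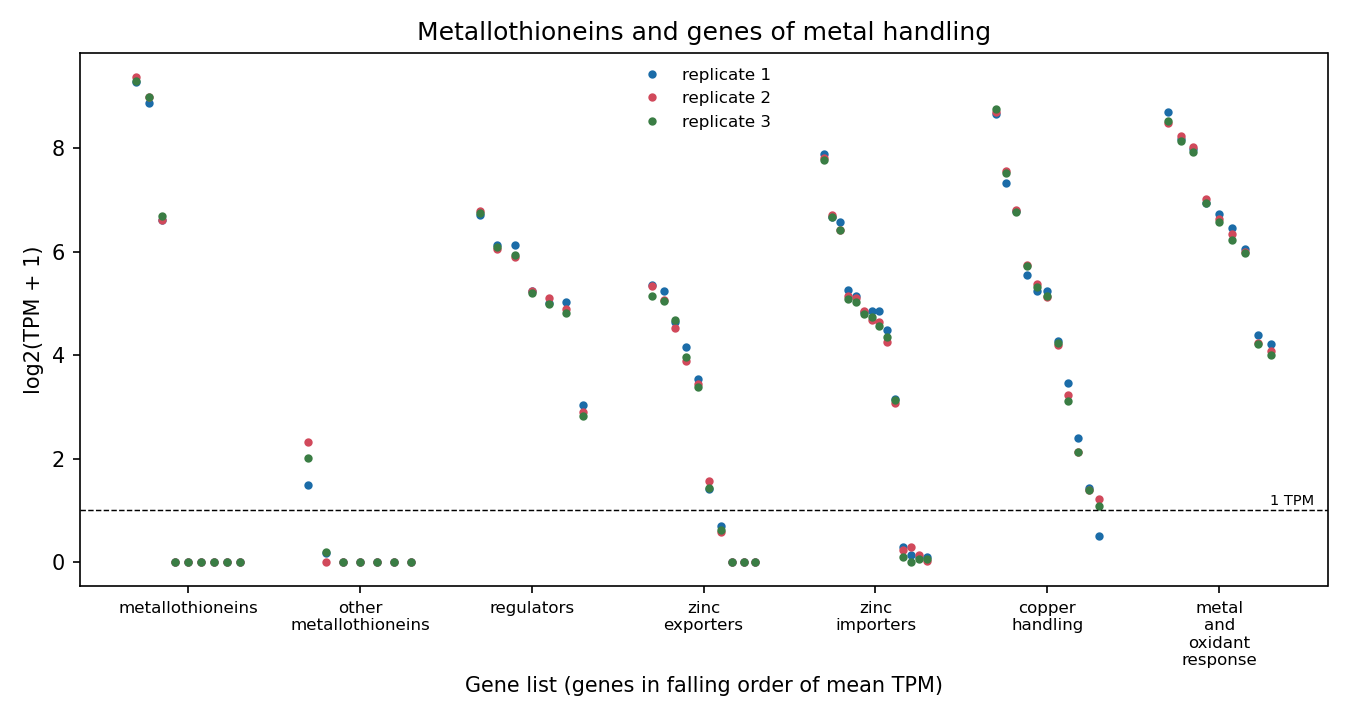
Levels of the 9 metallothioneins, 7 rows of other metallothionein genes and the 5 lists of metal-related genes, as log2(TPM + 1), with genes in falling order of mean TPM within each list and 1 point per library. Metallothioneins fall into 3 genes above 10 TPM and 6 at 0, while all 7 regulators and all 9 response genes lie above the dashed line at 1 TPM.

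The rows nearest to MT2A in level over the 3 libraries, by the highest absolute difference in log2(TPM + 1), were GPX1, PSMB7 and RPL32. GPX1, a selenium-dependent glutathione peroxidase, had 623, 661 and 638 TPM and differed by at most 0.01. PSMB7, a proteasome subunit, differed by at most 0.04, and RPL32, a ribosomal protein, by at most 0.06. This likeness over 3 libraries of 1 condition is a description of levels.

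The label was checked against marker genes. Of 12 genes for proteins that hepatocytes secrete, 0 reached 1 TPM in any library, and 9, among them ALB, APOA1 and SERPINA1, were listed at 0 in all 3. Their summed level was 0.0571 to 0.244 TPM per library, while all 8 housekeeping genes exceeded 10 TPM. These secreted proteins, which HepG2 is known to express, were therefore at or near 0, so the markers did not bear out the label. The metallothionein levels are those of the libraries under that label, whatever cells they came from. The part of cell identity in the 6 zeros was not tested. Coverage per FPKM, a relative measure of depth, differed by at most 1.16-fold between libraries. The mitochondrial tRNA gene TRNC took 16.9% to 17.2% of all TPM, which lowers every other TPM by about the same factor.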

How the data were processed

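RNA-seq was analysed in 3 libraries of 1 group, labelled wild-type HepG2, replicates 1 to 3. Per the paper's methods and the submitters' processing notes, 150 bp paired-end reads were filtered with FastQC v0.11.8 and Trim Galore v0.6.2 and mapped to GRCh38 with STAR v2.6.1a. StringTie is listed with no version or role. The annotation, strand setting and treatment of multi-mapped reads are not given in the sources used here. The authors deposited 1 table per library with coverage (mean depth, not scaled for library size), FPKM and TPM per gene. TPM deposited by the authors was used without further scaling. The tables give no counts and depth in reads was not worked out. The SD over 3 libraries describes the spread between them, which may be technical, and the precision of a level was not worked out.

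Rows were joined by gene and coordinates (43389), and 4069 on unlocalized, unplaced or alternative sequences were left out. A level of 1 TPM in every library counted as expressed. Neighbouring members with a mean of at least 1 TPM were compared within libraries by log2(TPM + 1) with an exact permutation test (two-sided, over sign flips). Protein-coding rows were matched by symbol to RefSeq genes (GRCh38.p14). Promoters came from RefSeq and transcripts from GENCODE v44. Named from each list were the 5 highest genes with at least 1 TPM in every library, with MTF1 and SLC30A1. Members and lists were chosen with earlier results of these data known. The range calculation was tested on simulated data. Alternatives were other scalings, FPKM, coverage, a pseudocount of 0.1, other minimum levels and leaving out each replicate. Calculations used Python 3.11.15, numpy 2.4.6, pandas 2.3.3 and matplotlib 3.10.9.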

Additional observations from a re-analysis of the deposited data

How the results depend on the processing

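Of the 9 members, MT2A, MT1E and MT1X remained the only ones to reach the minimum in every library under each scaling. This also held with minimum levels of 0.1 and 10 TPM and with each replicate left out. The other 6 were listed at exactly 0, so none of these settings could have raised them, and their outcome was fixed in advance. No ratio between neighbours changed direction under a pseudocount of 0.1, FPKM or coverage. Within a library FPKM is TPM times a constant, and a pseudocount keeps the order, so only coverage could have changed a direction. By coverage the log2 ratio of MT2A to MT1E moved from 0.37 to 1.12. That of MT1E to MT1X moved from 2.31 to 1.57. The summed level moved from 1232 to 1542 TPM without mitochondrially encoded genes and to 1486 TPM without TRNC, since both remove a share of TPM, and it was 6148 as coverage, which is another unit. The percentile of MT2A moved from 98.7 to 99.0 by coverage, 99.0 at a minimum of 0.1 TPM, 97.8 at 10 TPM, 98.5 among protein-coding genes and 99.5 with no filter. The ranges of MT2A, MT1E and MT1X stayed under 1 in all settings, but rose from 0.10, 0.12 and 0.08 to 0.15, 0.20 and 0.16 with median-of-ratios scaling, which put them above the median of rows that average 10 TPM or more instead of below it. Over all genes, 23 had a range above 1, and 173 did when the minimum mean was 1 TPM. With each replicate left out they numbered 10 to 16, the fewest without replicate 2 and 15 without replicate 1, and fewer libraries can only lower a range. Leaving out a replicate gave 1214 to 1256 TPM for the sum, 0.35 to 0.40 for the log2 ratio of MT2A to MT1E and 2.28 to 2.34 for that of MT1E to MT1X. Of the metal lists, 42 genes reached the minimum, 44 with 0.1 TPM, 35 with 10 TPM and 43 without replicate 1. At 1 TPM 59.5% of the protein-coding rows did so in every library, and that share was not worked out at the other minimum levels. Depth in reads was not worked out, which limits how each zero can be read. No paired analysis was possible because all libraries belong to 1 group.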
